A study of Mus musculus with 8 samples.

Results

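Interferon receptors and the Jak-Stat-Irf genes downstream of them were followed in 4T1 cells, a mouse mammary carcinoma line, by RNA sequencing. The 9 genes were taken by symbol from the deposited expression table, which holds 23606 genes. They are the chains of the type I interferon receptor (Ifnar1, Ifnar2) and of the interferon-gamma receptor (Ifngr1, Ifngr2), the kinase Jak1, the transcription factors Stat2, Irf9 and Irf1, and the inhibitor Socs1. All cells were wild-type 4T1 cells cultured without other cells, and all received SKL2001, a compound that stabilizes β-catenin and thereby activates canonical Wnt signaling, overnight. The Ctrl group received SKL2001 alone (n = 4, replicates 1 to 4). The Hypo group received SKL2001 together with decitabine, a nucleoside that traps DNA methyltransferases and lowers DNA methylation (n = 4, replicates 2 to 5). No library without SKL2001 was analysed here, so every value compares decitabine with no decitabine in Wnt-stimulated cells of a single line, and DNA methylation itself was not measured in these libraries.

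Type I interferons bind the Ifnar1-Ifnar2 receptor, which activates the kinases Jak1 and Tyk2. These phosphorylate Stat factors, among them Stat2, which join Irf9 in a complex that binds the interferon-stimulated response element (ISRE) of antiviral genes. Interferon-gamma binds Ifngr1-Ifngr2 and acts through Jak1 and Jak2 on Stat dimers that bind the gamma-activated site (GAS) of genes such as Irf1. Irf1 and the Stat complexes raise antigen presentation genes in tumor cells, and Socs1 ends the signal by blocking the kinases. Several genes of the pathway are themselves targets of interferon, so the RNA level of a component is both a property of the machinery and a readout of it. Protein levels and phosphorylation were not measured.

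The promoters are shown because the pathway acts back on some of its own genes through these motifs. RefSeq promoter windows (build GRCm38.p6, 250 bases before to 50 after each start) were found for 9 of 9 genes. The bases before the start are printed for the transcription factors and for Socs1, read toward the gene, with each motif match in capitals. The patterns searched on both strands were GAAA-NN-GAAA for the ISRE (hyphens only set off the NN, which stands for any bases) and TTCNNNGAA for the GAS.
Stat2 (chr10:128270248-128270497, plus strand): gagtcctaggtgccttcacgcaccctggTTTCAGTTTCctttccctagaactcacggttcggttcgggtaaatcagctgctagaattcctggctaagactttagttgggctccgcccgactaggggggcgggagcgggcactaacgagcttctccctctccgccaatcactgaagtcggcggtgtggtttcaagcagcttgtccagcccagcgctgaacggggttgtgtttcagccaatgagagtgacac
Irf9 (chr14:55603735-55603984, plus strand): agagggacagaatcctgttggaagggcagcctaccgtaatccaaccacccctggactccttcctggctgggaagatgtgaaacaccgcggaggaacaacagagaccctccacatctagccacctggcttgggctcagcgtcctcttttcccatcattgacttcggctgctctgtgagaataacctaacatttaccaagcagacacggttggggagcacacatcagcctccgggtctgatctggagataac
Irf1 (chr11:53769764-53770013, plus strand): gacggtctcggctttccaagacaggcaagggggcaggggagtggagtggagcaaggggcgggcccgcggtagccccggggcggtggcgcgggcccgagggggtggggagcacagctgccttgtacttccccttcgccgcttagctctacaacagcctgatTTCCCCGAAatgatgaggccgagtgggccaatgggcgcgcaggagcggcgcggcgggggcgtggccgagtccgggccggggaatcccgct
Socs1 (chr16:10785537-10785786, minus strand): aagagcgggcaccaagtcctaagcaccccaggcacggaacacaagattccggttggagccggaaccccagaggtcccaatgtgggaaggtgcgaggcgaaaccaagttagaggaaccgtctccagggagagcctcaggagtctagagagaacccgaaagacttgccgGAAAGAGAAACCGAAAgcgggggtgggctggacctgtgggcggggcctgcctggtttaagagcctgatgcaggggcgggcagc

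The Stat2 window held 1 ISRE-type match, TTTCAGTTTC, which lies 222 to 213 bases before the start and is the pattern read on the other strand. The Socs1 window held 2, GAAAGAGAAA at 83 to 74 and GAAACCGAAA at 77 to 68 bases before the start, which share their middle bases. The Irf1 window held the GAS-type match TTCCCCGAA at 90 to 82 bases before the start. No match was in the printed Irf9 window or in a second RefSeq window of Irf9, nor in a second window of Irf1. Both Irf9 windows, however, lie after the start that the GENCODE annotation gives for the gene (chr14:55603571). The bases before that start were not searched. Matches are placed here relative to RefSeq starts. The GENCODE starts of Stat2 (chr10:128270559), Ifnar1 (chr16:91485238) and Ifngr2 (chr16:91547072) lie after their RefSeq starts. That of Jak1 (chr4:101265282, minus strand) lies before its RefSeq start. Of the receptor chains, Ifnar2 held a GAS-type match (TTCCTGGAA, 214 to 206 bases before the start) and Ifnar1 one that crosses its start (TTCACGGAA), whereas Ifngr1, Ifngr2 and Jak1 held neither motif. ISRE-type matches thus stood in 2 of 9 genes (22.2%), against 3.99% of 27025 genes with a window. GAS-type matches stood in 3 of 9 (33.3%), against 9.55% of the same genes. A match is only a run of letters and does not show that a factor binds there.

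These windows also differed in CG dinucleotides, the sites that DNA methyltransferases modify. The counts per window of 300 bases were 32 and 43 in the 2 windows of Irf1, 31 in Ifngr2, 29 in Jak1, 26 in Ifnar1, 22 in Stat2, 18 in both Ifnar2 and Socs1, 14 in Ifngr1, and 9 and 1 in the 2 windows of Irf9. The median over the windows of the 10966 tested genes that had any was 20 (quartiles 10 and 28). The windows of Irf9 thus held the fewest CG dinucleotides of the 9 genes. Both lie after the GENCODE start of Irf9, and the bases before that start were not counted.

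Libraries held 27486245 to 39388394 reads assigned to genes. Values are normalized counts, which are reads divided by a size factor of each library. The difference between groups was tested with limma on the deposited variance-stabilized values, which are on a log2-like scale that compresses low genes, for 15746 genes whose normalized counts averaged 10 or more. A gene passed at an adjusted p below 0.05 over all of these genes. The epithelial markers of the 4T1 line were high throughout (7 genes, including Krt8, Krt18 and Epcam, summed normalized counts 136634 to 153195 in Ctrl and 126362 to 142631 in Hypo). Summed levels of the markers of other cell types were far lower. They ranged from 253 to 559 in Ctrl and 433 to 829 in Hypo for immune cells (4 of 7 markers in the table, with Cd3e and Adgre1 not analysed here), from 23.5 to 50.4 and 103 to 127 for endothelial cells (4 of 4 markers), and from 2215 to 2598 and 2957 to 3635 for fibroblasts (5 of 7 markers). Most of the immune sum was Cd68 (228 to 525 in Ctrl and 390 to 781 in Hypo), which did not pass. Most of the fibroblast sum was Pdgfra (mean 2062 in Ctrl and 2276 in Hypo), which did not pass either. Col1a1 had means of 399 and 985. Of the tested markers, 1 of 3 immune (Ptprc), 1 of 2 endothelial (Cdh5) and 3 of 4 fibroblast markers (Col1a1, Col1a2 and Pdgfrb) rose in Hypo, and 0 fell. Ptprc (mean 9.26 in Ctrl and 35.5 in Hypo) and Pdgfrb (5.46 and 21.0) met the minimum level only through their Hypo libraries. Their place among the markers that rose is thus partly set by that minimum. Of the 7 epithelial markers 1 rose (Epcam) and 2 fell (Krt7 and Esrp1). Over all tested genes 14.1% rose and 8.75% fell. No marker in the table was at 0 in all libraries, and the part of these cell types in the results was not tested. In bulk RNA, a change in the number of cells of a type and a change in RNA per cell cannot be told apart.

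In Hypo cells 3 of the 9 genes rose, all 3 by less than 1.5-fold. These were Irf9 (1.48-fold), Stat2 (1.18-fold) and Ifngr1 (1.16-fold), against 14.1% of all tested genes that rose. The count was 1 (Irf9) when Ctrl replicate 1, or either of Hypo replicates 2 and 3, was left out. By limma 0 of 9 fell, against 8.75% of all tested genes; 1 of the 9 was lower at an unadjusted p below 0.05, 0 by edgeR and 1 by DESeq2, in each case Jak1. Every Hypo library exceeded every Ctrl library in 3 of 9 genes, against 15.4% of tested genes, and below them in 1 of 9, against 10.3%. The median difference over the 9 genes was 0.13, against 0.00 over all tested genes. With 9 genes, these counts describe the genes and were not tested against the background.

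**Figure D1:**
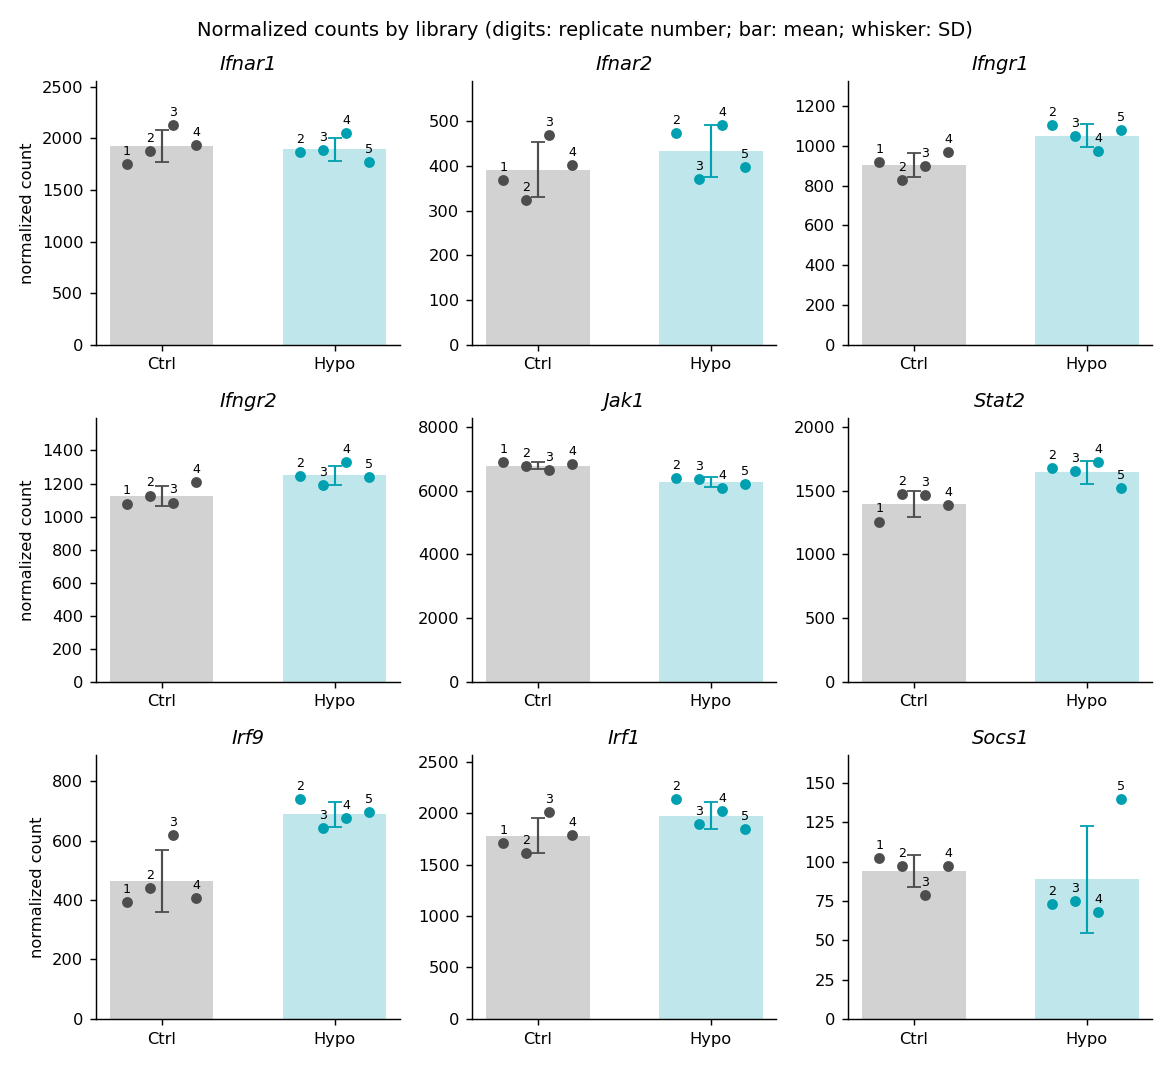
Normalized counts of the 9 genes in each library, with a separate axis from 0 for each gene. Points are single libraries with their replicate number, bars the group mean and whiskers the s.d. (n = 4). Irf9, Stat2 and Ifngr1 have all Hypo points above all Ctrl points, Jak1 has them all below, and Socs1 has a single high point in Hypo replicate 5 at 139.7.

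The levels of the 9 genes differed widely. Per kilobase of exon, Jak1 was highest in Ctrl at 939.9 ± 14.0 normalized counts (mean ± s.d., n = 4), and Socs1 lowest at 32.3 ± 3.59. Between them stood Irf1 (448 ± 43.2), Ifnar1 (324 ± 26.4), Ifngr1 (317 ± 20.6), Ifngr2 (299 ± 16.1), Stat2 (235 ± 16.9), Ifnar2 (118 ± 18.5) and Irf9 (86.3 ± 19.4). Ifnar1, Ifngr1 and Ifngr2 could not be ordered, since their Ctrl ranges overlapped (295 to 359, 291 to 341 and 286 to 321 per kilobase), and the ranges of Ifnar2 and Irf9 overlapped as well (97.4 to 141 and 73.1 to 115). The ranges of the other neighbors in this order were apart. Of the type I receptor chains, Ifnar1 was 2.54 to 3.25 times the level of Ifnar2 per exon length in Ctrl and 2.21 to 2.86 times in Hypo, ranges that overlap. The interferon-gamma receptor chains were near parity, with Ifngr1 to Ifngr2 ratios of 0.97 to 1.12 in Ctrl and 0.97 to 1.18 in Hypo.

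**Figure D2:**
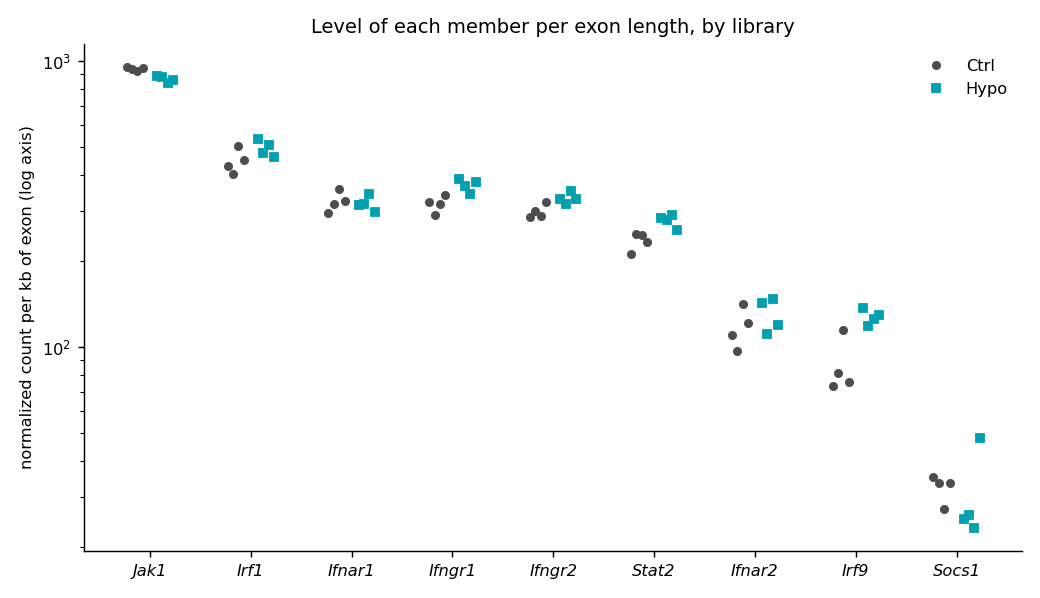
Normalized counts per kilobase of exon (log axis) of the 9 genes in each library, ordered by their Ctrl mean. Circles are the 4 Ctrl and squares the 4 Hypo libraries. Jak1 stands highest in all 8 libraries and Socs1 lowest, while Ifnar1, Ifngr1 and Ifngr2 overlap.

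Of the receptor chains, Ifngr1, the ligand-binding chain for interferon-gamma (chr10:19591949-19610229), rose. Its normalized counts were 916, 828, 900.2 and 970.3 in Ctrl (in the order of replicates 1 to 4, here and in what follows) and 1105, 1047, 974 and 1081 in Hypo (replicates 2 to 5). The groups did not overlap, but the lowest Hypo library, replicate 4, was only just above the highest Ctrl library, replicate 4. The difference of transformed values was 0.18 ± 0.05 (s.e., 95% interval 0.06 to 0.30, adjusted p = 0.0375). The call rested on single libraries: leaving out Ctrl replicate 1 or 2 gave adjusted p of 0.0757 and 0.119, and leaving out Hypo replicate 2, 3 or 5 gave 0.107, 0.0841 and 0.0739, while the difference stayed between 0.14 and 0.21 whichever library was left out.

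Ifngr2, the signaling chain that brings Jak2 to the same receptor (chr16:91547072-91565623), had 1079, 1127, 1085 and 1211 normalized counts in Ctrl and 1243, 1191, 1330 and 1241 in Hypo. A single pair broke the separation, as Ctrl replicate 4 lay above Hypo replicate 3. The difference of 0.13 ± 0.05 had a 95% interval of 0.02 to 0.24 and did not pass after adjustment (adjusted p = 0.096). It passed in none of the 20 alternative settings.

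The type I receptor chains did not pass. Ifnar1, which docks Tyk2 (chr16:91485238-91507441), had 1754, 1878, 2131 and 1936 normalized counts in Ctrl and 1869, 1886, 2048 and 1770 in Hypo. The ranges lay almost on top of each other, and the difference was -0.02 ± 0.06 (95% interval -0.15 to 0.11, adjusted p = 0.849), which bounds a change in either direction to 0.15 on the transformed scale. Its sign was not stable and turned positive without Ctrl replicate 3 (0.0245) or Hypo replicate 5 (0.0082).

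Ifnar2, which docks Jak1 (chr16:91372783-91405589), had 369, 324, 470.0 and 404 normalized counts in Ctrl and 474, 370.2, 492 and 398 in Hypo. In both groups the libraries spread more than the means differed, and the difference of 0.10 ± 0.08 did not pass (95% interval -0.08 to 0.28, adjusted p = 0.439). Ifnar2 shares 315 exon bases with the gene model Gm21970 on the same strand, where reads may not be assigned to either gene. Ifnar2, Il10rb, Ifnar1 and Ifngr2 follow each other on chromosome 16 in this order. Of these neighbors Il10rb alone passed, with values given among the other receptor chains.

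Jak1, the kinase shared by both receptors (chr4:101152367-101265282), was lower in every Hypo library, yet did not pass. It had 6900, 6783, 6659 and 6829 normalized counts in Ctrl and 6413, 6374, 6076 and 6214 in Hypo. All Hypo libraries lay below all Ctrl libraries, with a gap between the groups about as wide as the whole spread of the Ctrl libraries. The group means differed by a ratio of 0.923, and the difference was -0.11 ± 0.04 (95% interval -0.20 to -0.02, adjusted p = 0.0651). It passed without Ctrl replicate 3 (-0.12, adjusted p = 0.0399), with median centring (adjusted p = 0.0422) and with DESeq2 on recovered reads (adjusted p = 0.00814), but not with edgeR. Jak1 had the smallest standard error of the 9 genes.

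Irf9, the DNA-binding subunit of the type I complex that holds Stat2 (chr14:55603571-55610030), showed the largest difference of the 9 genes. Its normalized counts were 393, 439, 619 and 408 in Ctrl and 739, 642, 675 and 697 in Hypo. The Hypo libraries were close to each other, whereas Ctrl replicate 3 stood well above the other Ctrl libraries and just below the lowest Hypo library. The mean went from 465 ± 104 to 688 ± 40.9 (s.d.), and the difference of 0.42 ± 0.09 passed (95% interval 0.22 to 0.61, adjusted p = 0.00525). Only 4.47% of tested genes had a larger positive difference. Without Ctrl replicate 3 the difference was 0.52 (adjusted p = 2.05e-05), the largest over the libraries left out in turn, and the smallest was 0.37. With the replicate number as a block in the fit it was 0.36 and did not pass (adjusted p = 0.0755). Irf9 shares 123 exon bases with Rnf31, the neighboring gene on the same strand.

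Stat2, the partner of Irf9 in that complex (chr10:128270559-128292849), had 1257, 1471, 1468 and 1384 normalized counts in Ctrl and 1680, 1655, 1723 and 1518 in Hypo. The groups did not overlap, although Hypo replicate 5 lay close to Ctrl replicates 2 and 3. The difference of 0.20 ± 0.06 passed (95% interval 0.08 to 0.33, adjusted p = 0.0225). It did not pass without Ctrl replicate 1 or 4 (adjusted p = 0.0748 and 0.0582) or without Hypo replicate 2, 3 or 4 (adjusted p = 0.0639, 0.0619 and 0.0561), while the difference ranged from 0.16 to 0.24 over the libraries left out in turn. Relative to Irf9, Stat2 was 2.16 to 3.08 times as high per exon length in Ctrl and 1.98 to 2.34 times in Hypo. These ranges overlap only through Ctrl replicate 3, in which Irf9 was high.

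Irf1, a transcription factor that interferon-gamma induces early (chr11:53770014-53778374), had 1711, 1608, 2012 and 1789 normalized counts in Ctrl and 2134, 1897, 2019 and 1844 in Hypo. The groups overlapped through Ctrl replicate 3, which lay above Hypo replicates 3 and 5. The difference of 0.13 ± 0.07 did not pass (95% interval -0.01 to 0.28, adjusted p = 0.171), and it passed without Ctrl replicate 3 (0.19, adjusted p = 0.0224). Irf1 shares 135 exon bases with Gm17334 on the opposite strand.

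Socs1, the inhibitor that binds Jak kinases (chr16:10782240-10785536), was the least abundant of the 9, with 63 to 142 reads per library before scaling. Its normalized counts were 102, 97.3, 78.8 and 97.5 in Ctrl and 72.9, 75.1, 67.9 and 139.7 in Hypo. Of the Hypo libraries 3 lay below every Ctrl library, and Hypo replicate 5 lay above all of them. The difference of -0.04 ± 0.08 did not pass (95% interval -0.23 to 0.14, adjusted p = 0.751). Without Hypo replicate 5 it was -0.14 and did not pass either.

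**Figure D3:**
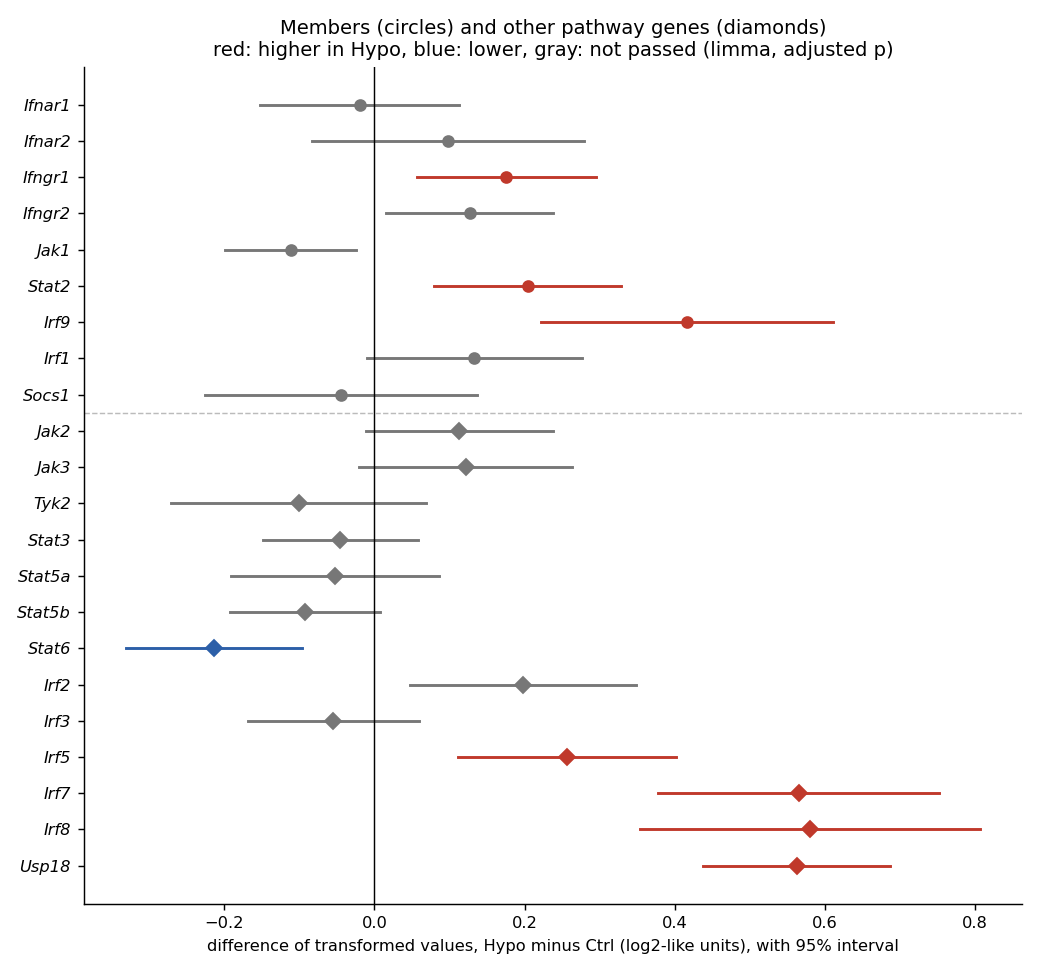
Difference of transformed values, Hypo minus Ctrl, with the 95% interval from limma, for the 9 genes (circles, above the dashed line) and for other Jak, Stat and Irf genes and Usp18 (diamonds). Red marks genes that were higher, blue lower and gray those that did not pass. Irf7, Irf8 and Usp18 lie between 0.56 and 0.58, to the right of Irf9 at 0.42.

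The remaining genes of the pathway were read from lists of other Jak-coupled cytokine receptor chains, Jak kinases, Stat factors, Irf factors and inhibitors. Of 47 genes listed, 42 were tested, of which 13 rose, 3 fell and 26 did not pass, with a median difference of 0.11. Without Ctrl replicate 3 the number that fell was 7. Over all tested genes 14.1% rose and 8.75% fell. Among 12 tested receptor chains 4 rose, and these included both chains of the type III interferon (interferon-lambda) receptor. Its ligand-binding chain Ifnlr1 rose by 0.21 ± 0.07 (s.e., adjusted p = 0.0422, with overlapping groups), and Il10rb, which it shares with the receptors for interleukin-10 and interleukin-22, by 0.22 ± 0.06 (adjusted p = 0.0173). Ifnlr1 was not followed over the alternative settings. Il10rb did not pass without Ctrl replicate 4 (adjusted p = 0.0567), without Hypo replicate 2 (adjusted p = 0.0501) or with quantile normalization (0.15, adjusted p = 0.0787). Il22ra1, the specific chain of the interleukin-22 receptor, went from 44.8 ± 4.13 to 83.5 ± 9.10 normalized counts (difference 0.29 ± 0.05, adjusted p = 0.00104). Il2rg, the common gamma chain, averaged 8.39 in Ctrl and 19.2 in Hypo, so it met the minimum level only through its Hypo libraries, and its call (adjusted p = 0.0417) was lost in 10 of 19 alternative settings, with a difference of 0.07 under quantile normalization.

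Of the other Stat genes, Stat6 fell and the Stat3 and Stat5 genes did not pass. Stat6, the mediator of interleukin-4 and interleukin-13, fell by 0.21 ± 0.05 (s.e., adjusted p = 0.0131). Stat3 (-0.05 ± 0.05), Stat5a (-0.05 ± 0.06) and Stat5b (-0.09 ± 0.05) did not pass, and the sign of Stat3 turned under quantile normalization (0.01).

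None of the other Jak kinases passed by limma (0 of 3, 0 at an unadjusted p below 0.05, and 0 by edgeR or DESeq2). The differences were 0.11 ± 0.06 for Jak2, 0.12 ± 0.07 for Jak3 and -0.10 ± 0.08 for Tyk2, the type I receptor kinase. Jak2 passed only when Hypo replicate 5 was left out (0.16, adjusted p = 0.0353).

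Of the 6 other Irf genes tested 3 rose, against 14.1% of all tested genes. Irf7, which drives late type I interferon production, went from 226 ± 52.4 to 429 ± 46.2 normalized counts (difference 0.56 ± 0.09, adjusted p = 0.000538). Irf8, best known in myeloid and B cells, went from 559 ± 103 to 952 ± 154 (0.58 ± 0.10, adjusted p = 0.00166), and Irf5 from 316 ± 39.2 to 417 ± 39.8 (0.26 ± 0.07, adjusted p = 0.0155). Irf5 did not pass without Ctrl replicate 1 or 4 (adjusted p = 0.0543 and 0.0507), without Hypo replicate 2 (0.0518) or with quantile normalization (0.0511). Irf2, an antagonist of Irf1, showed a difference of 0.20 ± 0.07 (adjusted p = 0.0588) that passed without Ctrl replicate 3 (0.26, adjusted p = 0.00252). Irf3, the sensor-activated factor upstream of interferon (-0.05 ± 0.05), did not pass.

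Among 16 other inhibitors 5 rose and 2 fell, against 14.1% and 8.75% of all tested genes. Usp18, which blocks the type I receptor at Ifnar2 and is itself an interferon target, rose from 175 ± 22.4 to 349.7 ± 15.3 normalized counts (difference 0.56 ± 0.06, adjusted p = 2.41e-05). Ptpn2, a phosphatase of Jak1 (0.24 ± 0.05, adjusted p = 0.00611), and Cish, a Stat5-induced inhibitor (0.25 ± 0.06, adjusted p = 0.00604), rose as well. The other genes that rose were Ptpn6 and Socs3, and those that fell were Socs6 and Socs4. Of the Socs genes, then, Socs3 rose while Socs1 did not pass.

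Those interferon ligands that had values were at low levels. Of 21 listed, 2 were in the table of normalized counts and 3 more (Ifnb1, Ifng and Ifnl2) only in the table of transformed values. The other 16 were in neither and were not analysed here, so their levels are not known. Ifnb1, Ifng and Ifnl2 did not exceed 3.67, 2.75 and 3.62 normalized counts in any library, as read back from their transformed values. Ifnab, a member of the interferon alpha cluster, had 0, 0, 1.81 and 1.71 normalized counts in Ctrl and 9.25, 11.4, 2.75 and 17.7 in Hypo. All Hypo libraries were above all Ctrl libraries, but at these levels the gene was below the minimum for testing, and its reads may be shared with close copies of the cluster. With no minimum, the difference was 0.30 (adjusted p = 0.00601). Ifne stayed at or below 3.62 in every library.

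The genes that type I interferon induces were read as a list of targets. Of 24 tested type I targets 15 rose and by limma 0 fell, against 14.1% and 8.75% of all tested genes. The number that fell was also 0 at an unadjusted p below 0.05, and 0 by edgeR or DESeq2. The median difference was 0.31. The number that rose was 11 to 20 over the 20 alternative settings. Those with the smallest p were Oasl1 (1.90 ± 0.10, adjusted p = 9.91e-08) and Oasl2 (1.01 ± 0.10, adjusted p = 2.56e-05), of the oligoadenylate synthetase-like family, and the double-stranded RNA sensor Ifih1 (0.48 ± 0.05, adjusted p = 3.88e-05). Of 20 tested interferon-gamma targets 9 rose and 2 fell, against the same 14.1% and 8.75%, with a median of 0.21. The chemokine Cxcl10 rose by 1.13 ± 0.09 (adjusted p = 2.53e-06), and the guanylate-binding proteins Gbp7 and Gbp3 by 0.61 ± 0.06 (adjusted p = 1.16e-05) and 0.54 ± 0.05 (adjusted p = 2.41e-05). Those that fell were Wars1, a tryptophan tRNA synthetase, and H2-Eb1, an MHC class II chain, and this count was 0 without Hypo replicate 2 or 4 and 1 without Ctrl replicate 2 or 4 or Hypo replicate 3. No count of these lists was tested against the rest of the genes, and many genes of the gamma list also respond to type I interferon.

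**Figure D4:**
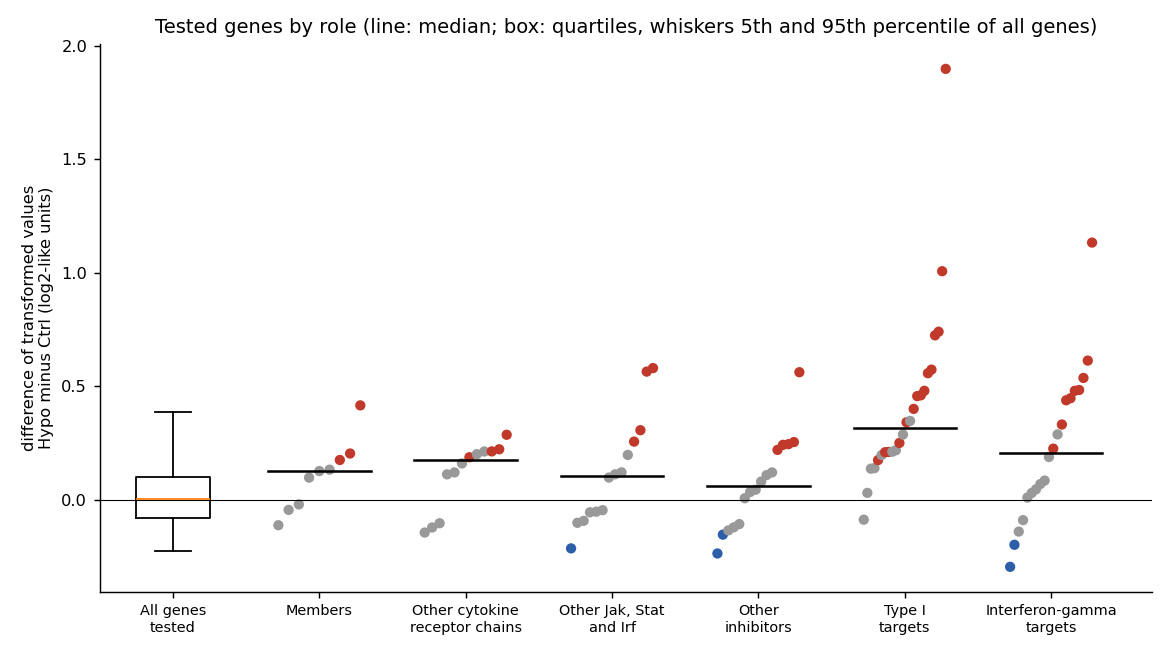
Difference of transformed values, Hypo minus Ctrl, of each tested gene in the lists of the pathway. The box shows all tested genes (line at the median, quartiles, whiskers at the 5th and 95th percentile), points are single genes (red higher, blue lower, gray not passed), and the black lines are list medians. The medians are 0.13 for the 9 genes, 0.31 for type I targets and 0.21 for gamma targets.

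Irf9 and the type I targets also varied among libraries of the same treatment. Ctrl replicate 3 was the highest Ctrl library in 21 of 24 type I targets (87.5%), in 22 of 42 other pathway genes (52.4%) and in 4 of the 9 genes (Ifnar1, Ifnar2, Irf9 and Irf1), against 35.8% of all tested genes. Hypo replicate 2 was the highest Hypo library in 15 of 24 type I targets (62.5%), against 24.1% of all tested genes, and also in 4 of the 9 genes. In the same Ctrl replicate 3 the summed level of 11 integrated stress response genes, such as Atf4, Asns and Trib3, was 100333 normalized counts, against 55714 to 69076 in the other Ctrl libraries and 61909 to 76120 in Hypo. The part of this in the differences was not tested. Without that library 4 of the 9 genes were higher in Hypo (Irf9, Stat2, Ifngr1 and Irf1) and 1 was lower (Jak1).

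**Figure D5:**
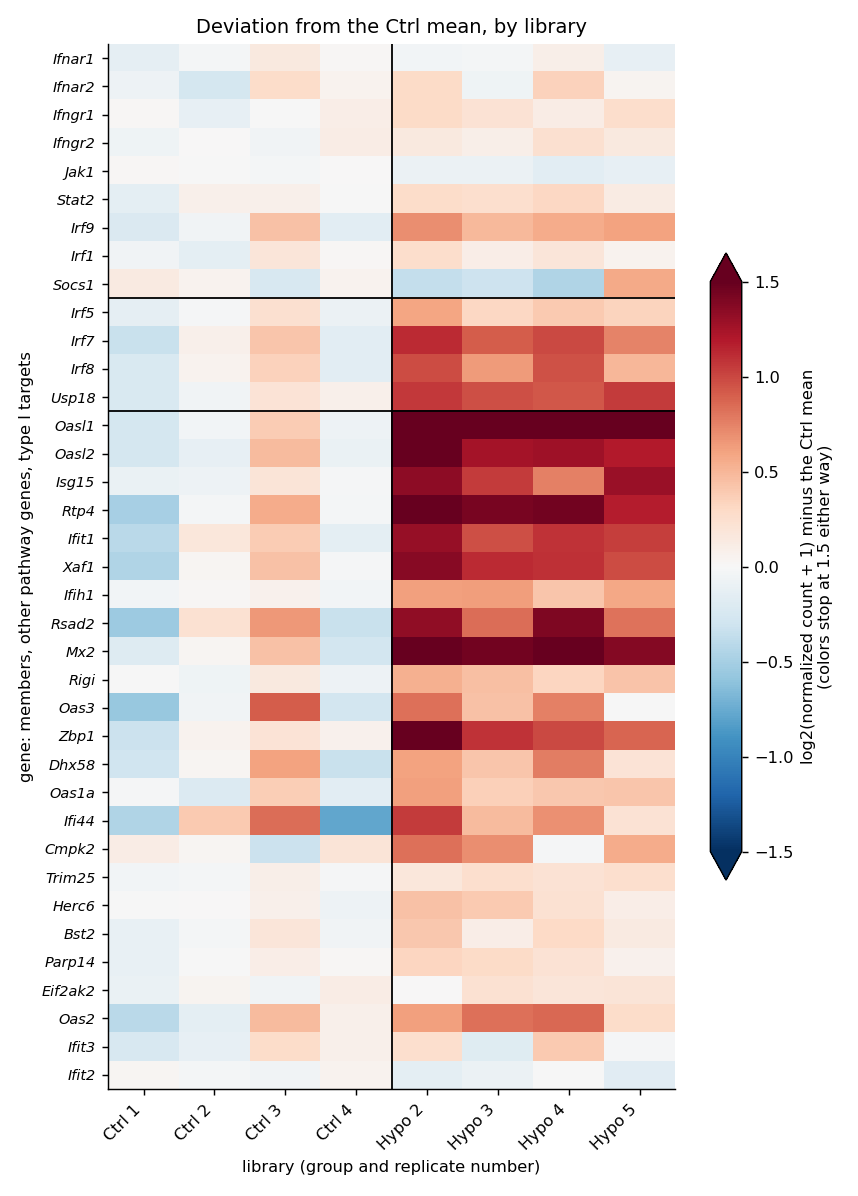
Deviation of each library from the Ctrl mean, in log2(normalized count + 1), for the 9 genes (top block), other pathway genes (middle) and type I targets (bottom). Red is above and blue below the Ctrl mean, with colors stopping at 1.5. Ctrl 3 is red in most type I targets and in Irf9, and the Hypo columns are red throughout most of the lower blocks, while the receptor chains and Jak1 stay pale.

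The genes whose transformed values followed each raised gene most closely over the 8 libraries, among 11318 genes compared, were Chrnb2 (Pearson r = 0.989) and Relb (r = 0.988) for Irf9, Il17rd (r = 0.990) and Aifm3 (r = 0.985) for Stat2, and Cdc5l (r = 0.978) and Prkab1 (r = 0.960) for Ifngr1. Relb encodes a subunit of the non-canonical NF-κB pathway, and Il17rd a receptor related to those for interleukin-17. The points are 8 libraries in 2 groups that differ in treatment, so genes that differ between the groups correlate, and the values describe likeness only.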

How the data were processed

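The sample titles gave the groups and replicate numbers. Stranded libraries were made from polyadenylated RNA, and the study's methods give alignment with STAR to GRCm38 and counting per gene. The submitters' processing notes also name bcl2fastq, HTSeq and DESeq2. The strand setting of the counting was not given in the sources used here, and reads of antisense neighbors may therefore be mixed. No source states that replicates were separate cultures. The p-values thus measure only how far these samples spread, which may be technical.

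The authors deposited normalized counts for 23606 genes, a signal made by dividing the reads of each library by a size factor, and transformed values for 27336 genes, which the authors put on a log2-like scale by variance stabilization. The deposited table also holds the authors' own mean, log2 fold change, its standard error, a Wald score and p-values, which were not used. In every library 100% of the normalized counts were whole reads at a tolerance of 0.01, and these recovered reads gave 27486245 to 39388394 reads per library. Depth covers counting error only.

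The 15746 genes present in both tables and averaging 10 normalized counts or more were tested with limma 3.58.1 in R 4.3.3 (two-sided, moderated with a mean-variance trend, p adjusted by Benjamini-Hochberg over all of them, threshold 0.05). Alternatives were no minimum or one of 50, leaving out each library or Ctrl replicate 3 with Hypo replicate 4, the replicate number as a block, quantile normalization, median centring, no trend, log2 of the normalized count plus 1 or 5, edgeR 4.0.16 (TMM or the authors' size factors) and DESeq2 1.42.0 on recovered reads. The fits were tested on simulated data. Named are the 9 genes, the 3 smallest p of each other list plus every Jak, Stat and Irf gene (some of which are not reported here), the 2 genes most alike to each of the 9 that passed, and, chosen after their values were seen, Ifnlr1, Il2rg, Ptpn6, Socs3, Socs4, Socs6, Wars1, H2-Eb1 and the ligands. Cell type markers that passed are named as well. Genes and lists were chosen with earlier results of these data known. Gene positions follow GENCODE on GRCm38, and sequences follow RefSeq (GRCm38.p6).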

Additional observations from a re-analysis of the deposited data

Results flagged for a closer look

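Socs1 in Hypo replicate 5 stood far from the other libraries of its group. Its normalized count was 139.7, against 67.9 to 75.1 in Hypo replicates 2 to 4, a gap of 0.900 of the group's range, past the limit that Dixon's criterion sets for 4 samples. Of 70 groups of 4 examined (35 named genes in 2 treatments) this was the 1 past the limit, while chance alone passes it in about 1 of 20 groups. Its cause was not tested.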

How the results depend on the processing

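Over 20 alternatives, Irf9, Stat2 and Ifngr1 stayed higher in Hypo in sign, and Jak1 stayed lower. The replicate block rests on the shared numbers 2, 3 and 4, whose deviations correlated at -0.11, -0.21 and -0.17. Between libraries with different numbers the correlations ran from -0.594 to 0.524. These values therefore cannot show whether the numbers pair the libraries. With the block, 0 of the 9 genes, 5 other pathway genes, 11 type I targets and 1283 of all genes passed as higher. As lower, 0 other pathway genes, 0 gamma targets and 322 of all genes passed. Adjusted p under the block was 0.0755 for Irf9, 0.135 for Stat2 and 0.267 for Ifngr1. The calls were also lost for Ptpn2 (0.0922), Stat6 (0.111), Cish (0.121), Irf5 (0.139), Il10rb (0.196) and Il2rg (0.236). Median centring and DESeq2 each gave 1 of the 9 genes lower (Jak1), and DESeq2 gave 5 other pathway genes lower. A minimum of 50 gave 1 gamma target lower and 1350 of all genes higher. Quantile normalization turned the sign of Ifnar1 (0.0048) and Stat3 (0.014), and gave 1818 genes higher and 1962 lower (48.1% higher), against 2219 and 1378 (61.7%). Leaving out single libraries moved the 9 genes higher between 1 and 4 and lower between 0 and 1, other pathway genes higher between 9 and 15 and lower between 2 and 7, type I targets higher between 12 and 20, gamma targets higher between 8 and 11 and lower between 0 and 2, all genes higher between 1800 and 2743 and lower between 852 (without Ctrl replicate 4) and 2095 (without Ctrl replicate 3), and the Ifnar1 difference between -0.0582 and 0.0245. The lowest counts of the 9 genes came without Ctrl replicate 1 or Hypo replicate 2 or 3, and the cause was not tested. Depth limits Socs1 (63 reads in its lowest library) and the ligands, whose differences would not be detectable here if small.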
